A study of Junco hyemalis with 48 samples.

Results

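The dark and white parts of a single growing tail feather of the dark-eyed junco (Junco hyemalis) were compared here. The feather was the fourth rectrix (R4), a tail feather that is dark over some of its length and white over the rest. The rule took every library labelled as the fourth rectrix, which gave 24 of the 48 libraries in the series. Of these, 13 came from the dark, pigmented part of 7 birds and 11 from the white, apigmented part of 6 birds. Every white library had a dark partner from the same bird and the same side of the tail, so 22 libraries formed 11 feather pairs: feathers of both sides in birds A, B, D, F and G, and the left feather of bird E. Bird C had dark parts only and entered no pair. All birds were untreated. Plucking had started regrowth, and new feathers were taken after 14 days, at a pin length of about 1 cm. R4 was then cut into its parts before freezing. None of the sources used here gives strain, age or sex. Whole dark second rectrices (R2, 11 libraries from 6 birds) and whole white sixth rectrices (R6, 13 libraries from 7 birds) of the same birds served for comparison.

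Dark plumage colour comes from melanin, which pigment cells of the feather follicle make and pass to the keratinocytes that form the barbs. A growing feather is added to at its base, and its older cells harden into keratin towards the tip. The labels place the colour change of R4 along the feather's long axis, so colour and position along the feather cannot be told apart in these samples. Each part is a bulk sample, in which fewer cells of a kind and less RNA per cell cannot be told apart either. The gene models of the count table carry only identifiers (the letter g and a number) in the files used here. No gene name or role is therefore given to any of them, and the labelled colours could not be checked against named pigment genes.

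The paired R4 libraries held 16278989 to 39919388 counts in dark parts and 12987431 to 53462453 in white parts. Expression is given on the counts-per-million scale (CPM), with library sizes scaled by TMM, a correction for differences in composition. The 20 most abundant gene models took 11.33% to 18.45% of counts in dark parts and 12.05% to 25.08% in white parts, against 13.33% to 16.01% in whole feathers. In 8 of 11 pairs that share was larger in the white part. It was larger in the dark part in the left feather of bird B, the right feather of bird D and the right feather of bird F. Some libraries stood apart from others with the same label. For the gene models with the largest folds of R2 over R6, both dark parts of bird B lay among the white parts. In those gene models the white part of the right feather of bird F lay nearer to the dark parts than any other white part did. Gene models called lower in R2 than in R6 were mostly lower in the dark parts of bird B too. Their median log2 difference, dark minus white part, was -0.912 there with the sides averaged. This was not particular to bird B. The right feather of bird D was at -0.630, with 17.6% of them above 0, against 20.3% and 20% in the feathers of bird B. Bird F was at -0.117 and -0.158. Whether the parts of bird B are labelled correctly was not tested, so a bird B value stands for the library with that label. Calls between the R4 parts and the medians of the whole-feather lists are given with and without bird B. So are counts of gene models with 1 direction in every feather. The sets over 2-fold in at least 8 feathers, the spread over gene models and the correlations between feathers were worked out only with bird B.

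The 5 gene models named for the largest log2 folds of R2 over R6 were higher in the dark part of most R4 feathers. Consistency over feathers did not choose them. Of 13084 gene models with a mean of at least 1 CPM, 125 were higher in the dark part in at least 10 of 11 feathers and 55 lower. In the dark parts, g2687 had a lowest value of 7.29 CPM, a median of 72.2 CPM and a highest value of 132.7 CPM, against 0.306, 6.86 and 42.8 CPM in the white parts. It was higher in the dark part of all 11 feathers, although the ranges of the parts overlapped through bird B and the right feather of bird F. In the left feather of bird G it was at 72.2 CPM in the dark part and 0.306 CPM in the white part, where it rested on 5 counts. In the right feather of bird F it was at 60.0 CPM in the dark part and 42.8 CPM in the white part. The dark parts of bird B held 11.5 CPM (left) and 7.29 CPM (right), against 5.12 and 3.78 CPM in its white parts. Over 6 birds, with left and right averaged, the log2 difference of g2687 was 3.08 ± 1.69 (SD, n = 6 birds).

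The gene model g3235 was higher in the dark part in 10 of 11 feathers. Its dark parts ran between 1.30 and 106.6 CPM with a median of 76.0 CPM, and its white parts between 1.41 and 38.4 CPM with a median of 3.51 CPM. The exception was the right feather of bird B, with 1.30 CPM in the dark part and 2.94 CPM in the white part. Its log2 difference averaged 3.18 ± 1.84 (SD, n = 6 birds). By RNA extraction batch, the mean log2 difference of g3235 was 1.86 in batch 1 (birds A and B), 3.78 in batch 2 (bird D) and 3.54 in batch 3 (birds F and G). For g2687 these values were 2.11, 3.70 and 3.79. Birds of the same batch differed: g3235 was at 3.74 in bird A and -0.01 in bird B, and at 2.09 in bird F and 4.98 in bird G. For g2687 the values of birds A, B, F and G were 3.18, 1.05, 1.69 and 5.88. The parts of bird E came from different extraction batches, and there the difference was 4.48 for g3235 and 3.01 for g2687.

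**Figure D1:**
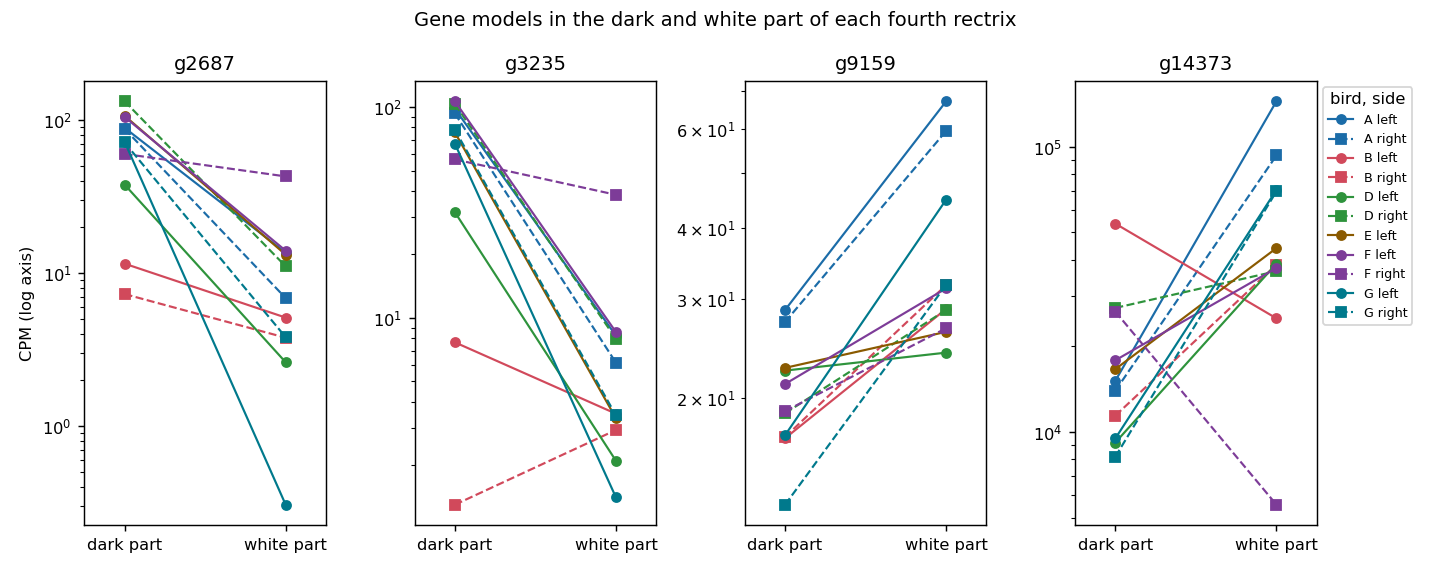
Expression in CPM (log axis) of 4 gene models in the dark part (left) and the white part (right) of each of 11 R4 feathers. Each line joins the parts of one feather, colour marks the bird, and circles with solid lines are left feathers and squares with dashed lines right feathers. The lines of g2687 all slope down towards the white part and those of g9159 all slope up, whereas the left feather of bird B and the right feather of bird F cross the others for g14373.

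Of the gene models with the largest folds between whole dark and white feathers, the 3 others were also higher in most dark parts. The highest level was that of g12080, which had a median of 179.7 CPM in dark parts (11.6 to 341.9 CPM) and of 16.9 CPM in white parts (6.56 to 86.2 CPM), and was higher in the dark part in 10 of 11 feathers. In the right feather of bird B it was at 11.6 CPM in the dark and 11.8 CPM in the white part. Medians for g20332 were 21.7 CPM in dark and 2.59 CPM in white parts, with the dark part higher in 9 of 11 feathers and both exceptions in bird B. For g11241 the medians were 26.2 CPM in dark and 4.36 CPM in white parts, again with 9 of 11 feathers. Its exceptions were the right feathers of bird B and of bird F.

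Across all gene models, no difference between the parts passed the test when each bird was 1 replicate. Counts of left and right feathers were summed within bird and part, and the 12 profiles of 6 birds were fitted with the bird as a block (edgeR, quasi-likelihood F test, Benjamini-Hochberg adjusted p below 0.05). Of 15143 gene models, 0 were called (0%), and 570 had an unadjusted p below 0.05 (3.76%). DESeq2 on the same profiles called 26 of 20314 gene models. The log2 fold, dark over white, was 2.83 for g2687 (SE 0.47), 3.20 for g3235 (SE 0.61), 2.89 for g12080 (SE 0.54), 2.64 for g20332 (SE 0.66) and 1.86 for g11241 (SE 0.52), each with an edgeR adjusted p of 0.983. A fit that adds the whole feathers and shares 1 estimate of the spread called 117 of 15844 gene models (0.738%) when the dark part was set against the white. Of these calls, 76 were upward (0.48%) and 41 downward (0.259%). Without bird B that fit called 1996 of 15868 gene models, with 840 upward and 1156 downward. Without the dark profile of bird B alone it called 1276 of 15844, with 583 upward and 693 downward. The balance of directions thus turned. In that fit with all birds, the 5 gene models above passed, with edgeR adjusted p between 0.00452 and 0.0428. Bird B and the unpaired dark parts of bird C were both in it. The SD over gene models of left minus right had a median of 0.355 in dark parts (6 birds, bird C included) and 0.43 in white parts (5 birds), against 0.30 in R2 (5 birds) and 0.295 in R6 (6 birds). Over 19 alternatives, the adjusted p of g2687 ran from 2.64e-10 to 1, and that of g3235 from 7.17e-05 to 1.

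Without bird B, 10 of 15176 gene models were called in the fit of R4 parts alone (0.0659%). In the dark part 9 of them were up and 1 was down. They are named here because they passed that test, and this choice was made after their values were seen. The higher ones were g3235, g12080, g2687, g20332, g15802, g7792, g6262, g15521 and g13001. For g15802 the log2 fold without bird B was 1.92 (SE 0.16, edgeR adjusted p = 0.0188), the lowest adjusted p of the 10. Its dark parts had a median of 71.7 CPM (23.9 to 92.0 CPM), against 20.7 CPM in white parts (9.50 to 38.1 CPM). The dark part was higher in 9 of 11 feathers, and in bird B the dark parts held 23.9 and 24.9 CPM against 30.7 and 30.4 CPM in the white parts. The log2 folds without bird B were 3.66 for g3235, 3.32 for g12080 and 3.16 for g2687. Of these 9 gene models, 8 were also called higher in R2 than in R6, libraries that did not enter this fit, where 2.34% of gene models were. Bird B stood apart in gene models that differ between R2 and R6, so this overlap is not independent of leaving bird B out. The remaining one of the 9, g13001, had a log2 fold of 0.78 between the R4 parts without bird B (SE 0.10, adjusted p = 0.0402) and of 0.10 between whole feathers (SE 0.05, adjusted p = 0.328). It had a median of 89.8 CPM in dark parts and 46.0 CPM in white parts, and was higher in the dark part in 9 of 11 feathers. The gene model called lower was g1492, at a log2 fold of -1.55 without bird B (SE 0.20, edgeR adjusted p = 0.0460). Over 19 alternatives, the adjusted p ran from 1.05e-05 to 1 for g15802, from 4.33e-05 to 1 for g13001 and from 0.000152 to 1 for g1492.

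Of the 13084 gene models with a mean of at least 1 CPM, 11 differed in the same direction in all 11 feathers. That count was 208 without bird B (138 higher, 70 lower), 91 without bird D, 38 without bird F, 35 without bird A and 22 without bird E, each over fewer feathers. Besides g2687, 6 were higher in every dark part, which makes 7 in all (0.0535%), and 4 were lower (0.0306%). Being chosen for their direction, they are described and not tested. How many gene models would share a direction in every feather with no difference between the parts was not worked out. The count itself is therefore not a result about the parts. The other large difference among the higher ones was that of g16002, at 2.18 CPM in dark parts (1.70 to 5.58 CPM) and 0.823 CPM in white parts (0.141 to 2.16 CPM), both medians, with single libraries down to 4 counts. The median log2 difference was 1.16 for g16002. It was 0.47 for g19389, 0.34 for g12043, 0.24 for g14121, 0.16 for g4208 and 0.09 for g11081. In these 5 gene models the smallest difference of a single feather was between 0.003 and 0.019 on the log2 scale. With RLE size factors, g4208 and g12043 no longer had 1 direction in every feather. With library totals alone, g14121, g4208, g11081 and g12043 did not have it.

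Among the 4 gene models lower in every dark part, g9159 had the largest difference. It had a median of 19.0 CPM in dark parts (12.9 to 28.6 CPM), against 31.3 CPM in white parts (24.1 to 67.1 CPM). The parts overlapped across birds, but within each feather the dark part was lower, by 0.11 on the log2 scale in the left feather of bird D and by up to 1.38 in that of bird G. Both feathers of bird B were on the same side, at 17.0 and 17.1 CPM in the dark parts and 28.8 and 31.7 CPM in the white parts. The median log2 difference was -0.76 for g9159, -0.43 for g5557, -0.32 for g8987 and -0.24 for g258. None of the 4 kept 1 direction in every feather when libraries were scaled by their totals alone, a scaling that moved the median log2 fold of all gene models to 0.099, against -0.005 with TMM. Between whole feathers, g9159 (log2 fold 0.04, adjusted p = 0.835) and g5557 (0.12, adjusted p = 0.336) did not pass the test. The gene model g258 fell there, at a log2 fold of -1.18 for R2 over R6 (SE 0.10, edgeR adjusted p = 6.94e-06).

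Some large differences recurred in most feathers. Of 13084 gene models with a mean of at least 1 CPM, 2257 were over 2-fold apart, either way, in at least 3 feathers. In at least 8 of 11 feathers, 16 were over 2-fold higher in the dark part and 13 over 2-fold lower. These sets were also chosen on their R4 values. A member near 1 CPM can pass the CPM filter through the part where it is high. In the higher set g8786, at a mean of 1.01 CPM, was at 0 CPM in the white part of the left feather of bird A. In the lower set g21534, at a mean of 1.07 CPM, was at 0 CPM in the dark part of the right feather of bird G. R2 and R6, which did not choose the sets, gave a different picture for each. Of the 16, 12 were called higher in R2 than in R6 and 1, g2396, lower, with a median log2 fold of 3.00. Of the 13, 0 were called higher and 1, g1492, lower, with a median log2 fold of 0.03 and a range from -0.39 to 0.51. Between whole feathers as such, 693 of 15240 gene models passed (4.55%). Upward calls in R2 made up 357 of them (2.34%) and downward calls 336 (2.2%).

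Both sets also differed in which feathers were exceptions. The 16 higher gene models included g2683, at a median log2 difference of 1.90, g13833 at 2.13, g18166 at 1.79 and g12078 at 1.58. Means over the 22 libraries were low, at 6.75 CPM for g2683, 1.50 for g13833, 2.13 for g18166 and 1.21 for g12078. In white parts g13833 was at 0 CPM in the left feather of bird G, and g12078 at 0.028 CPM in that of bird D. Folds at such levels depend on few counts and on the prior count. All 16 were higher in the dark part in both feathers of bird A, in that of bird E, in both of bird G and in the left feather of bird F. In bird B, 11 of 16 were lower in the dark part of the left feather and 10 of 16 in that of the right feather. In the right feather of bird F, 11 of 16 were higher, with a median of 0.475 on the log2 scale.

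The 13 lower gene models included g14373, the most abundant gene model of these libraries. In dark parts g14373 ran from 8171 to 53662 CPM with a median of 15085 CPM, and in white parts from 5546 to 144191 CPM with a median of 38847 CPM. It was lower in the dark part in 9 of 11 feathers, with a log2 fold of -1.46 (SE 0.49, edgeR adjusted p = 0.983). In the left feather of bird A it took 1.68% of counts in the dark part and 11.6% in the white part. The left feather of bird B went the other way, with 53662 CPM in the dark part and 24973 CPM in the white part, as did the right feather of bird F, with 26373 and 5546 CPM. Over the set, 12 of 13 gene models were higher in the dark part of that feather of bird B, and 13 of 13 in that of bird F. In the right feather of bird B, 12 of 13 were lower, with a median of -1.57 on the log2 scale.

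Other members of the lower set had the same exceptions. The gene model g3974 had 76.99 to 544.4 CPM in dark parts and 59.0 to 1174 CPM in white parts. In its dark parts it was highest in the left feather of bird B, and in its white parts lowest in the right feather of bird F. In the left feather of bird G, g4112 had 106.7 CPM in the dark part and 598.5 CPM in the white part. It was higher in the dark part in the left feather of bird B, at 272.5 against 138.0 CPM, and in the right feather of bird F, at 154.8 against 89.6 CPM. For g1492, the left feather of bird B held 120.2 CPM in the dark part and 22.3 CPM in the white part, whereas the left feather of bird A held 15.9 and 73.2 CPM. In 2 feathers with reversed direction, the left one of bird B and the right one of bird F, the 20 most abundant gene models also took more of the dark library (18.45% and 13.67%) than of the white (13.62% and 12.05%). The right feather of bird D had that too (18.19% and 15.56%) without the reversal, since 13 of 13 gene models were lower in its dark part. The gene model g14373 belongs both to this set and to the 20 most abundant, so the share is not a separate observation. It took 4.82% of the dark and 2.61% of the white library in the left feather of bird B. In the right feather of bird F it took 2.74% and 0.610%. The part of library composition in these differences was not tested.

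**Figure D2:**
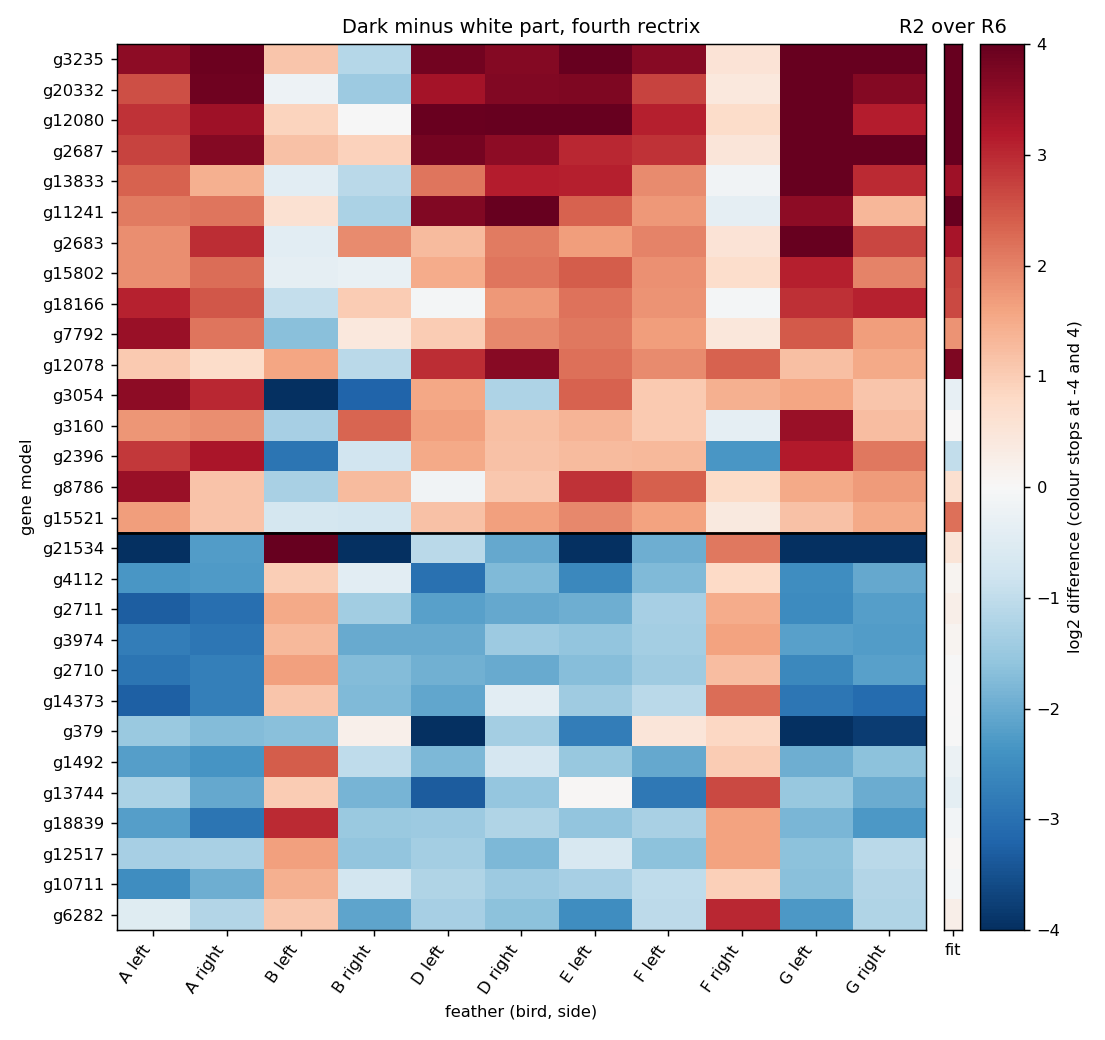
Log2 difference of the dark minus the white part (colour, from blue for lower in the dark part to red for higher) for 29 gene models in 11 feathers, with the log2 fold of R2 over R6 in the narrow column. Above the black line are 16 gene models over 2-fold higher in the dark part in at least 8 feathers and below it 13 over 2-fold lower. The upper set is mostly red in the narrow column and the lower set mostly pale, and the left feather of bird B and the right feather of bird F are red in the lower set.

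Over all gene models, the dark and white parts differed to a different degree, and in different directions, from feather to feather. The SD over gene models of the log2 difference was between 0.43 in the left feather of bird F and 1.01 in the left feather of bird A. More than 2-fold differences were seen in 463 to 2661 of 13084 gene models per feather. In the left feather of bird A, 2033 were higher and 628 lower in the dark part, and in the left feather of bird B, 286 were higher and 1875 lower. In 455 gene models the dark part was over 2-fold higher in at least 3 feathers and over 2-fold lower in at least 3 others. Between the whole feathers of a bird on 1 side, R2 minus R6, the SD was 0.32 to 0.57 over 9 feathers. Averaged per bird, the SD was 0.652 ± 0.212 within R4 and 0.385 ± 0.071 between whole feathers (SD, n = 5 birds). The difference of 0.267 was positive in 4 of 5 birds and did not pass an exact permutation test over birds (sign flips, two-sided, p = 0.125, where 5 birds allow no less than 0.0625).

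Feathers could be compared by correlating their dark-minus-white differences across gene models, which are not independent replicates. Within a bird, r between its sides was 0.79 in bird A, 0.39 in bird B, 0.38 in bird G, 0.16 in bird F and -0.18 in bird D. Between feathers of different birds it ran from -0.77 to 0.68 with a median of 0.055, and 22 of 50 values were negative. For R2 minus R6, the between-bird values ran from -0.09 to 0.43 with a median of 0.315, and 1 of 32 was negative. The feathers of bird A, the left feather of bird D, that of bird E and the right feather of bird G all correlated positively with each other, at 0.24 to 0.79. Both feathers of bird B and the right feather of bird D correlated negatively with each of those feathers, at -0.77 to -0.10, and positively with each other, at 0.39 to 0.57. The right feather of bird D had 132.7 CPM of g2687 in the dark part and 11.1 CPM in the white part, the same direction as its left feather at 37.9 and 2.61 CPM.

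**Figure D3:**
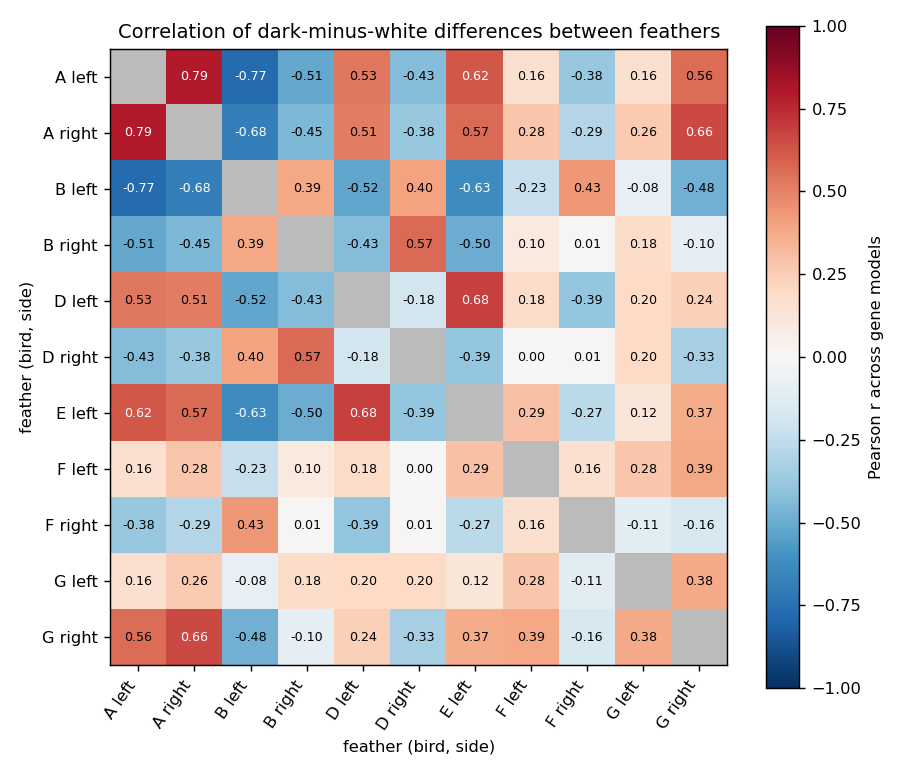
Pearson correlation across 13084 gene models of the log2 differences, dark minus white part, between each pair of 11 feathers (bird and side on both axes, self-correlations in grey). Red cells mark feathers whose parts differed alike and blue cells feathers whose parts differed in opposite directions. Bird B is blue against bird A, and left and right of bird D are at -0.18.

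The lists of gene models called between whole feathers were measured within R4, whose libraries did not choose them. Of the 357 called higher in R2, 352 were tested between the R4 parts. They had a median log2 fold of 0.173, with 268 above 0 (76.1%), beside a median of -0.005 and 48.8% over all gene models tested, and 0 passed the test. With the size of the whole-feather fold the R4 fold was larger too, in groups split after the results had been seen. It had a median of 1.79 for the 21 measured gene models over 4-fold higher in R2, of 0.597 for the 36 between 2-fold and 4-fold and of 0.146 for the 295 under 2-fold. In single feathers, the median of the 21 was between 1.62 and 2.92 in all feathers of birds A, D, E and G and the left feather of bird F. It was 0.409 in the right feather of bird F and -0.199 and -0.288 in bird B. Per bird, the median of the higher list averaged 0.182 ± 0.178 (SD, n = 6 birds), and bird B was at -0.134. Within extraction batches it was 0.129, 0.195 and 0.183, and 0.274 in bird E across batches. The first of these averages bird A at 0.391 and bird B at -0.134, the second is bird D alone, and the third averages birds F at 0.129 and G at 0.237.

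The 336 gene models called lower in R2 than in R6 had a median near 0 between the R4 parts. In the R4 fit, 330 were tested, with a median log2 fold of 0.025. Of the 330, 187 were above 0 (56.7%) and 143 below 0, beside 48.8% above 0 over all gene models tested. In the list 0 passed the test, as did 0 of all 15143 gene models. Split by the size of the whole-feather fold, the median was -0.342 for the 5 measured gene models over 4-fold lower in R2, all 5 of them below 0. It was 0.009 for the 57 between 2-fold and 4-fold and 0.042 for the 268 under 2-fold. The median of the whole list in single feathers ran from -1.02 in the left feather of bird B to 0.977 in the left feather of bird A. In bird D it was 0.391 in the left and -0.630 in the right feather. Over birds it averaged 0.003 ± 0.559 (SD, n = 6). The median of this list was below 0 without bird A (-0.141) or E (-0.067) and with lists from left feathers measured in right feathers (-0.345), whereas it was 0.308 without bird B. Members of the list changed as well. There were 190 tested without bird A, 203 without bird B and 141 with the list from left feathers. Without bird E, 330 were tested. Effects of membership and of R4 values were not separated.

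Single members of the lower list varied as widely. In dark parts g5533 had 1.49 to 6.76 CPM with a median of 3.12 CPM, against 1.83 to 6.23 CPM in white parts with a median of 4.25 CPM. It was lower in the dark part in 8 of 11 feathers and, averaged over sides, in 6 of 6 birds. For g1218 the dark part was higher in 7 of 11 feathers, with 0.061 to 6.32 CPM in dark and 0.281 to 4.54 CPM in white parts. The gene model g9854 was higher in the dark part in 8 of 11 feathers, g7321 in 6 and g3304 in 4, at medians of 0.770 to 1.58 CPM in either part.

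**Figure D4:**
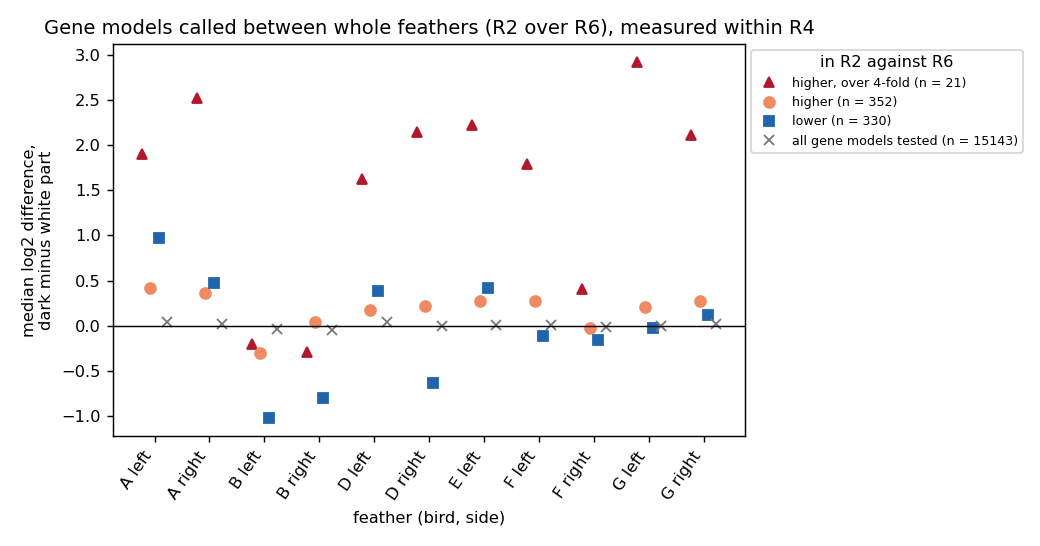
Median log2 difference, dark minus white part, in each of 11 feathers for the gene models called higher in R2 than in R6, those of them over 4-fold higher, those called lower, and all gene models tested. Triangles (over 4-fold higher) are above 1.5 in 8 feathers and near or below 0.5 in both feathers of bird B and the right feather of bird F, and squares (lower) lie on either side of 0.

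The other most abundant gene models differed less between the parts than g14373. In dark parts g9021 had a median of 16114 CPM (12757 to 48519 CPM), against 22015 CPM in white parts (15249 to 35862 CPM). It was lower in the dark part in 9 of 11 feathers, and higher in the right feathers of birds B and D. For g16901 the medians were 11888 CPM in dark and 14614 CPM in white parts, and the log2 fold was -0.24 (SE 0.21). The gene models g8668 and g21916 had log2 folds of -0.09 (SE 0.12) and 0.04 (SE 0.14), and the spread between birds was larger than either.

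Whether the colour difference within R4 differed from that between whole feathers was tested on the difference of both differences in the 5 birds with all groups. With limma, 0 of 15837 gene models were called (0%), and 555 had an unadjusted p below 0.05. For g2687 the R4 minus the whole-feather difference was -4.49 on the log2 scale (SE 0.36, limma adjusted p = 0.0658), and for g3235 it was -5.04 (SE 0.79, adjusted p = 0.869). The whole-feather log2 folds were 7.07 for g2687 (SE 0.19, edgeR adjusted p = 1.69e-06) and 7.98 for g3235 (SE 0.22, adjusted p = 3.34e-06).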

How the data were processed

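The labels' protocols describe RNA from a tissue extraction robot, strand-marking mRNA libraries and a 75 bp sequencing module. Tools in the submitters' processing notes were STAR 2.7.2b, Trimmomatic 0.33, Subread 1.6.0, bcl2fastq and featureCounts, with no role or order stated. None of the sources used here gives the genome build, annotation, settings or counting strand. Raw counts per gene model were deposited by the authors with no normalization, 1 column per library, for 20808 gene models. Values of overlapping gene models or of near-identical gene copies are uncertain, since neither could be recognised. Birds were taken from the 7 animal identifiers in the labels (the growth protocol gives 6 birds). In the main tests the sides of a bird were not treated as independent. Counts over 11 feathers took each side as 1 entry, so those feathers stand for 6 birds.

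Counts were summed over sides within bird and part and tested with edgeR 4.0.16 in R 4.3.3 (robust quasi-likelihood F test, TMM, default expression filter, bird as block, adjusted p below 0.05), with limma 3.58.1 and DESeq2 1.42.0 where named. The R4 parts were fitted alone, because a spread shared with whole feathers may be too small for them. SE of a log2 fold was derived from its F statistic. Feather differences are log2 CPM with a prior count of 2, for gene models with a mean of at least 1 CPM over the 22 paired libraries. Pairing comes from the same animal: deviations of both parts from their group means correlated at 0.50, 0.44, 0.40, 0.16, -0.03 and -0.25 in birds G, D, F, E, A and B. In the 22 left and right pairs of 1 bird and group, libraries differed by more than counting noise (chi-square per gene 4.52 to 151). Other pairs of libraries were not compared for this. Tests were checked on simulated data with the same spread set for all gene models and no bird that stood apart. How the tests behave under the spread of the R4 parts was not checked.

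Gene models were named if they differed in 1 direction in all 11 pairs, had 1 of the 5 largest folds in either direction among those called between R2 and R6 with a mean of at least 1 CPM there, or were among the 5 most abundant. No gene model qualified by passing the R4 test. The gene models called without bird B and those over 2-fold in at least 8 pairs fall outside this rule and were chosen after their values were seen. Members, lists and tests were chosen with earlier results of these data known. Alternatives were other scalings, filters, tools and fits, 1 side alone and leaving out each bird.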

Additional observations from a re-analysis of the deposited data

Results flagged for a closer look

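In 3 of 28 sets of values over birds, 1 bird stood far from the others, where chance gives 1.4. Values are the mean log2 difference of a bird's feathers, dark minus white part. Bird B was the lowest for g9854, at -1.90 with the next bird at 0.69, and for g5533, at -1.05 with the next at -0.34. For g9854 the value of bird B rested on its left feather, at -3.63, with 0 counts in the dark part and 32 in the white part. Its right feather was at -0.165, and the left feather of bird G was at -0.266. Bird E was the highest for g12043, at 0.62 with the next bird at 0.36. That value is a single feather, with its parts from different extraction batches, set against means of 2 feathers. Left feathers of birds B and A were at 0.596 and 0.476, and their right feathers at 0.048 and 0.003. Bird B also stood apart for g6262, at -0.93 with the next bird at 0.89, and for g15521, at -0.72 with the next at 1.00. Both were named because they passed the test once bird B was left out, so its distance there follows from that choice and is not counted above.

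For g11081 the dark part was higher in 6 of 6 birds within R4, at a mean log2 difference of 0.11. It was named for being higher in every dark part, so that count follows from the choice. R2 was lower than R6 in every bird, at -0.07, which did not pass the edgeR test (adjusted p = 0.291). The difference between the R4 and the whole-feather contrast did not pass the limma test (adjusted p = 0.9996).

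The dark R4 parts of bird C had no white partner and entered no feather pair and no fit of the R4 parts alone. They did enter the fit of all 4 groups. Their CPM come from a scaling of all 24 R4 libraries together. The lower of its 2 feathers held 124.5 CPM of g3235, above the highest white part at 38.5 CPM, and 95.4 CPM of g2687, above the highest white part at 42.9 CPM.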

How the results depend on the processing

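The count of 0 gene models called between the R4 parts was also 0 without the replicate block, with RLE size factors, with library totals alone, with limma voom and sample weights, with no filter or a mean of at least 5 CPM, in left or right feathers alone and with 22 libraries as separate feathers. It was 26 with DESeq2 and 117 with all 4 groups in 1 fit. That fit gave 1276 calls when the dark R4 profile of bird B was left out, chosen after seeing the data, and 1996 without bird B. Leaving out each bird gave 0 to 10 calls, with 10 without bird B. The 11 gene models with 1 direction in every feather were 27 with library totals alone, 263 in left and 641 in right feathers alone, which have fewer pairs, and 15 to 208 without each bird, with 208 without bird B. The difference of differences gave 21 calls in edgeR with all 4 groups and 0 to 1 without each bird. The median of the higher list was 0.074 without bird G and 0.346 without bird B, where the list had 453 and 233 tested members instead of 352. Log2 folds of some uncalled gene models changed sign. For g3304 it was -0.03 with all 4 groups, -0.23 in left and -0.21 in right feathers, -0.22 with separate feathers and -0.34 to 0.51 without each bird. For g7321 it was -0.03 in right feathers and -0.14 to 0.59 without each bird. For g21916 it was -0.02 with all 4 groups without bird B, -0.06 with sample weights and in left feathers, and -0.03 to 0.12 without each bird. For g8668 it was 0.01 with library totals. The cause was not tested. Counting depth limits gene models near 1 CPM.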

Other observations

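In the unpaired dark R4 parts of bird C, other gene models with large folds between whole feathers were also high. On a scaling of all 24 R4 libraries, g12080 was at 310.0 CPM (left) and 226.4 CPM (right), and the highest of 11 white parts was at 86.4 CPM. For g11241 the values were 64.4 and 112.9 CPM, against a highest white part of 15.3 CPM. The most abundant gene model, g14373, was at 22884 and 23120 CPM in bird C, above 1 of 11 white parts (5559 to 144568 CPM). The gene model g9159, lower in the dark part of every paired feather, was at 35.3 and 39.3 CPM there, above 8 of 11 white parts.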
